A study of Homo sapiens with 2 samples.

Results

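The genes described here are 9 feedback inhibitors of the ERK kinase pathway: the phosphatase genes DUSP1, DUSP4, DUSP5 and DUSP6, the Sprouty genes SPRY1, SPRY2 and SPRY4, and the SPRED genes SPRED1 and SPRED2. They were taken by symbol from the deposited expression table, which listed all 9 among its 12075 protein-coding genes, and they were selected on the same FPKM values that are given below, in particular the opposite differences of SPRY4 and DUSP4. The table covers 2 RNA-seq libraries of LNCaP, a line of human prostate cancer cells that responds to androgen. In the oe library the cells had received CM of M2 macrophages labelled oe-YY1, and in the nc library CM of M2 macrophages labelled nc-YY1. The LNCaP cells of both libraries are labelled wild type and were grown in RPMI medium with serum. The labels spell out neither oe, nc nor CM, and the treatment labels add that the cells were cocultured. The study asks how YY1, a zinc finger transcription factor, acts in tumor-associated macrophages on prostate cancer cells.

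ERK, the last kinase of the RAS, RAF and MEK cascade, switches on genes whose products then switch the cascade off. Dual-specificity phosphatases of the DUSP family remove the activating phosphates from ERK and its relatives. Sprouty and SPRED proteins act further up, between growth factor receptors and RAF, and SPRED proteins bring the RAS inhibitor neurofibromin to the membrane. Transcripts of these genes are therefore widely read as a record of ERK activity, although DUSP1 and DUSP5 also answer to stress and cytokine signals.

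Levels are in FPKM, which divides fragments by transcript length and by library size, so they can be compared between genes. Each log2 ratio sets FPKM + 1 in the oe library over FPKM + 1 in the nc library. The 11126 genes that reached 1 FPKM in at least 1 of the libraries are the genes tested here, and those at least 2-fold apart on that scale were called higher or lower in the oe library. With 1 library per group, no difference has a replicate check, a p-value or an error, and the number of reads behind a value is unknown. Of the genes tested, 6.46% were called higher and 5.83% lower, and their median log2 ratio was -0.01. The LNCaP label was checked on 14 luminal prostate markers, which were all listed. Their summed level was 642 FPKM in the oe library and 1475 FPKM in the nc library, and 8 were called lower and 1 higher. KRT8, a keratin of luminal cells, had 38.1 FPKM in the oe library and 39.2 FPKM in the nc library. Of 32 macrophage and leukocyte markers, 10 were listed, and these summed to 1472 FPKM in the oe library and 93.2 FPKM in the nc library, with 8 of the 9 tested called higher. Of these 9, 7 were under 1 FPKM in the nc library and had to be higher. These sums rest on few genes. In the oe library HLA-DRA, S100A9, CD74 and HLA-DRB1 had 700, 270, 251 and 116 FPKM. In the nc library LCP1 had 89.9 FPKM, and it had 114 FPKM in the oe library. CD68 stood at 4.18 (oe) and 0.632 (nc) FPKM, and LYZ at 0.603 (oe) and 0.0382 (nc) FPKM. S100A8 had 8.55 (oe) and 0.0411 (nc) FPKM, CTSS 5.87 (oe) and 0.0409 (nc) FPKM, and ITGAM 2.34 (oe) and 0.00787 (nc) FPKM. None of the 10 was at 0 in either library. The defining markers PTPRC, CD14, CD163 and CSF1R were not analysed here. What part RNA of other cells had in the levels below was not tested, and in bulk RNA fewer cells of a type and less RNA per cell cannot be told apart.

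The 4 DUSP genes did not move together. DUSP1, DUSP5 and DUSP6 had higher levels in the oe library and DUSP4 a lower one. DUSP1, a nuclear phosphatase of p38, JNK and ERK that is itself an immediate early gene (ENSG00000120129.5_2, chromosome 5, 172195093 to 172198198, minus strand, as deposited), had 40.0 FPKM in the oe library and 13.1 FPKM in the nc library. It was the most abundant of the 9 genes in either library, at percentile 92.9 of listed genes in the oe library and percentile 74.3 in the nc library. Its log2 ratio was 1.54, and its plain FPKM differed 3.06-fold. It was the only DUSP member with at least 1 FPKM in both libraries.

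DUSP4, a nuclear phosphatase of ERK and JNK (ENSG00000120875.8_2, chromosome 8, 29190581 to 29208185, minus strand), had 0.950 FPKM in the oe library and 6.98 FPKM in the nc library, a log2 ratio of -2.03. It was the second most abundant of the 9 genes in the nc library and the eighth in the oe library. Among all genes tested it had the 124th lowest log2 ratio. DUSP5, a nuclear phosphatase that acts on ERK alone (ENSG00000138166.5_2, chromosome 10, 112257596 to 112271302, plus strand), went the other way, at 4.28 FPKM in the oe library and 0.321 FPKM in the nc library (log2 ratio 2.00). The summed level of the ERK phosphatases DUSP4 and DUSP5 was 5.23 FPKM in the oe library and 7.30 FPKM in the nc library. DUSP6, the cytoplasmic phosphatase that acts on ERK and is often used as an ERK reporter (ENSG00000139318.7_2, chromosome 12, 89741009 to 89747048, minus strand), had 1.16 FPKM in the oe library and 0.101 FPKM in the nc library. Its log2 ratio was 0.98, just short of 2-fold, while its plain FPKM differed 11.5-fold. Of the 130 genes tested that lay under 0.2 FPKM in the nc library, 86.2% were called higher, and a gene that low could enter the test only by its level in the oe library.

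**Figure D1:**
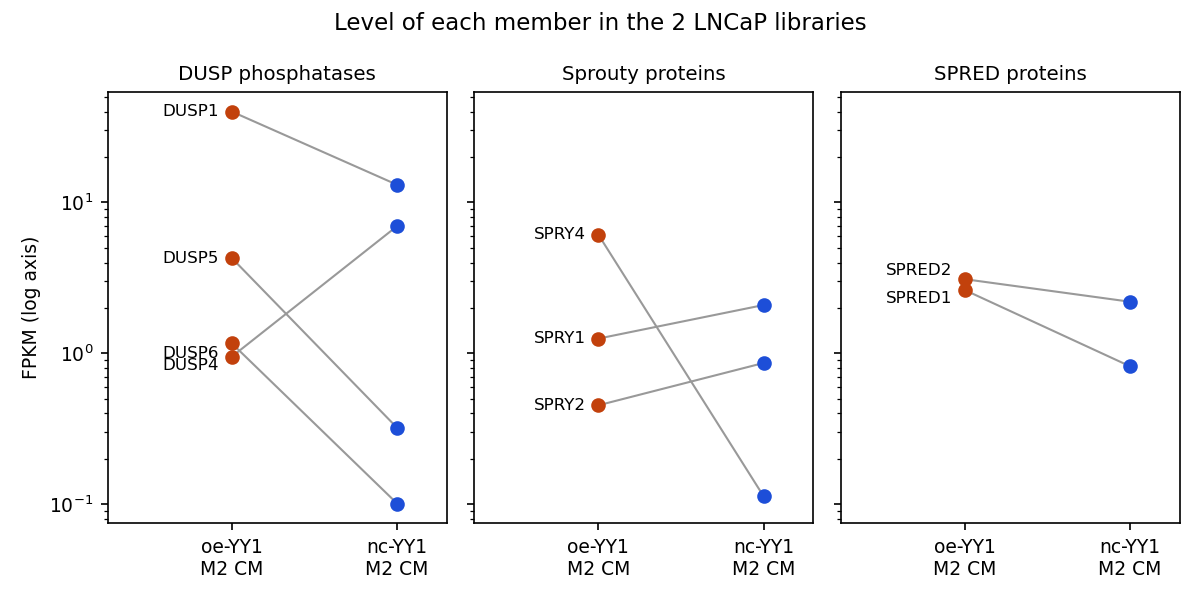
Level of each of the 9 genes in FPKM (log axis) in the oe library (left point) and the nc library (right point), with 1 library per group and therefore no error bars. DUSP4 stands at 0.950 (oe) and 6.98 (nc) FPKM and SPRY4 at 6.13 and 0.113 FPKM in the oe and nc libraries, so the lines of these genes slope in opposite directions.

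The 3 Sprouty genes were divided. SPRY4 (ENSG00000187678.8_3, chromosome 5, 141689992 to 141706020, minus strand) had 6.13 FPKM in the oe library and 0.113 FPKM in the nc library. It had the highest log2 ratio of the 9 genes, 2.68, the 85th highest of all genes tested. Its level lay at percentile 53.1 of listed genes in the oe library and at percentile 1.37 in the nc library. SPRY1 (ENSG00000164056.10_2, chromosome 4, 124317950 to 124324915, plus strand) had 1.25 FPKM in the oe library and 2.09 FPKM in the nc library (log2 ratio -0.46). SPRY2, the best studied member, which also binds the ubiquitin ligase CBL (ENSG00000136158.11_3, chromosome 13, 80910111 to 80915086, minus strand), had 0.452 FPKM in the oe library and 0.863 FPKM in the nc library. SPRY2 was the only one of the 9 genes under 1 FPKM in both libraries and was not among the 8 tested. SPRY1 and SPRY2 both had lower levels in the oe library, but by less than 2-fold, and with 1 library per group such a gap cannot be set against a spread.

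The SPRED genes both had higher levels in the oe library, by less than 2-fold on the FPKM + 1 scale. SPRED1, which is lost in Legius syndrome (ENSG00000166068.12_3, chromosome 15, 38544527 to 38649450, plus strand), had 2.63 FPKM in the oe library and 0.820 FPKM in the nc library. Its log2 ratio of 0.99 placed it 722nd among all genes tested, of which 719 were called higher. SPRED2 (ENSG00000198369.9_3, chromosome 2, 65537985 to 65659771, minus strand) had 3.10 FPKM in the oe library and 2.20 FPKM in the nc library, a log2 ratio of 0.36. NF1, the RAS inhibitor that SPRED proteins recruit, was called higher, at 4.42 FPKM in the oe library and 1.53 FPKM in the nc library.

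Of the 8 genes tested, DUSP1, DUSP5 and SPRY4 were called higher, DUSP4 was called lower and 4 fell under the 2-fold size. Over the 8 the median log2 ratio was 0.99, against -0.01 over all genes tested. These counts describe genes chosen for their values and support nothing beyond that. DUSP5, DUSP6, SPRY4 and SPRED1 were under 1 FPKM in the nc library, so they entered the test by the oe library and had to be higher there, and DUSP4, under 1 FPKM in the oe library, had to be lower. Among all genes tested that were under 1 FPKM in the nc library, 39.9% were called higher. The 3 genes that reached 1 FPKM in both libraries were DUSP1, SPRY1 and SPRED2, with log2 ratios of 1.54, -0.46 and 0.36. In the authors' deposited table of genes with a fold of at least 1.5, SPRY4, DUSP5, DUSP1, SPRED1 and DUSP6 were listed as higher and DUSP4 as lower, with p-values of 1 for all 6. At 1.5-fold, 15.3% of the genes tested were higher and 15.2% lower. The number called higher depended on scale: it was 5, with SPRED1 and DUSP6 added, when 0.1 or 0.5 FPKM was added in place of 1, or when the libraries were scaled to the same FPKM sum. With 0.1 FPKM added, 10.1% of the genes tested were called higher and 8.21% lower. With 0.5 FPKM added, 907 of 11126 genes were called higher, and at the same FPKM sum 853 of 11149 were. The number of members called higher was 2 when at least 5 FPKM was required in the higher library, which left out DUSP5. Under that filter 508 of 7147 genes were called higher.

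**Figure D2:**
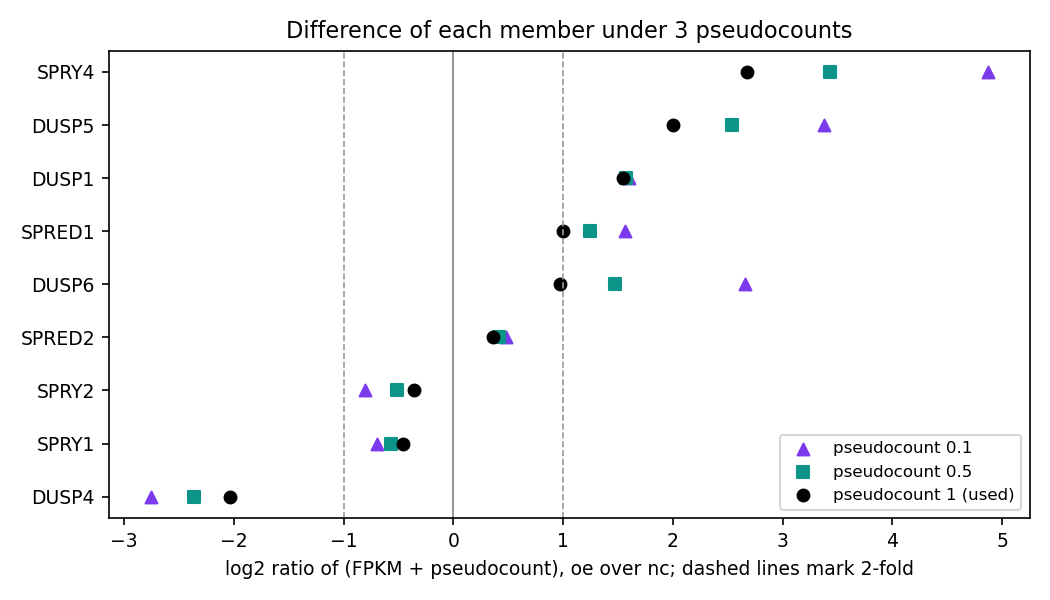
Log2 ratio, oe over nc, of each of the 9 genes with 0.1, 0.5 or 1 FPKM added to each level, and dashed lines at 2-fold. The sign of each gene is the same under the 3 settings, while SPRY4 spans 2.68 to 4.87 and DUSP6 0.98 to 2.65, and DUSP1 stays between 1.54 and 1.60.

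**Figure D3:**
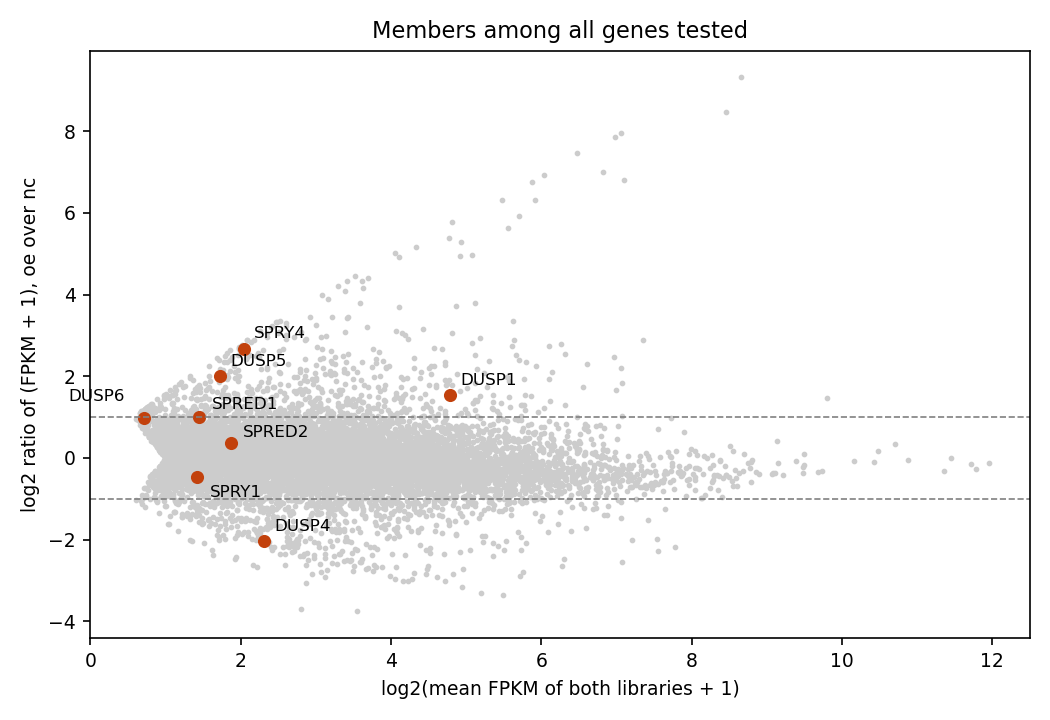
Log2 ratio of (FPKM + 1), oe over nc, against the log2 mean level for the 11126 genes tested (grey) and the 8 members among them (orange), with dashed lines at 2-fold. DUSP5, DUSP6 and SPRY4 lie on the upper left edge that genes near 0 in the nc library form, while DUSP1 lies inside the cloud at a higher mean level.

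The make-up of each family differed between the libraries. SPRY4 held 78.2% of the summed Sprouty level in the oe library and 3.68% in the nc library, where SPRY1 held 68.2%. The summed Sprouty level was 7.83 FPKM in the oe library and 3.07 FPKM in the nc library, while that of SPRY1 and SPRY2 was 1.70 (oe) and 2.95 (nc) FPKM. DUSP4 held 2.05% of the summed level of the 4 DUSP genes in the oe library and 34.0% in the nc library. DUSP1 held 86.2% in the oe library and 63.9% in the nc library. Summed over the 4 DUSP genes, the level was 46.4 FPKM in the oe library and 20.5 FPKM in the nc library, and without DUSP1 it was 6.40 (oe) and 7.40 (nc) FPKM. All 9 genes together summed to 59.98 FPKM in the oe library and 26.6 FPKM in the nc library.

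**Figure D4:**
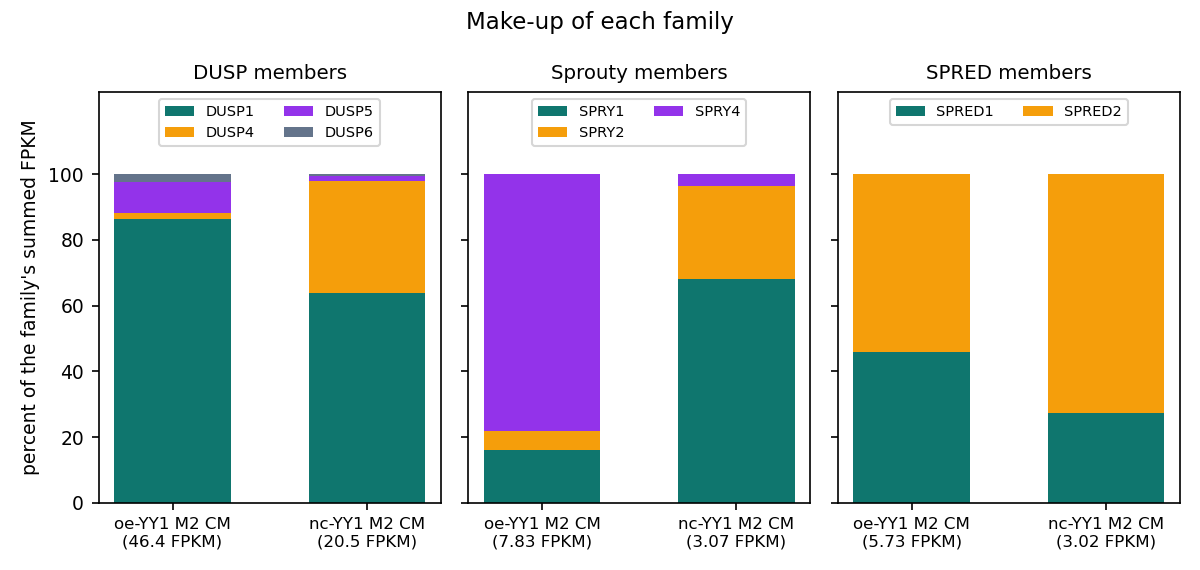
Percent of each family's summed FPKM held by each gene in the oe library (left bar) and the nc library (right bar), with the sum in FPKM under each bar. SPRY4 fills 78.2% of the Sprouty bar in the oe library and 3.68% in the nc library, and DUSP4 fills 2.05% (oe) and 34.0% (nc) of the DUSP bar.

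Ranked by level, the 9 genes ran DUSP1, SPRY4, DUSP5, SPRED2, SPRED1, SPRY1, DUSP6, DUSP4 and SPRY2 in the oe library. In the nc library the order was DUSP1, DUSP4, SPRED2, SPRY1, SPRY2, SPRED1, DUSP5, SPRY4 and DUSP6. Several neighbours in these orders were close, such as SPRY1 and DUSP6 in the oe library (1.25 and 1.16 FPKM) and SPRY2 and SPRED1 in the nc library (0.863 and 0.820 FPKM), and without replicates neighbours cannot be told apart from their spread.

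The members were then set beside the other MAP kinase phosphatases, in classes known from textbooks and put together after their values were seen. The nuclear class (DUSP1, DUSP2, DUSP4 and DUSP5) summed to 87.2 FPKM in the oe library and 62.9 FPKM in the nc library. DUSP2, also an inducible nuclear phosphatase, had nearly equal levels, 41.9 FPKM in the oe library and 42.5 FPKM in the nc library. The cytoplasmic ERK phosphatases (DUSP6, DUSP7 and DUSP9) summed to 5.88 FPKM in the oe library and 10.1 FPKM in the nc library. Within that class DUSP6 was the gene with the higher level in the oe library, whereas DUSP9 was called lower, at 1.82 FPKM in the oe library and 4.65 FPKM in the nc library, a difference right at the 2-fold threshold, and DUSP7 stood at 2.89 (oe) and 5.40 (nc) FPKM. The class that acts on JNK and p38 (DUSP8, DUSP10 and DUSP16) summed to 34.9 FPKM in the oe library and 17.7 FPKM in the nc library. DUSP10 was called higher, at 7.38 FPKM in the oe library and 1.4995 FPKM in the nc library (log2 ratio 1.74), and DUSP16 stood at 21.8 (oe) and 11.2 (nc) FPKM. Of the 20 dual-specificity phosphatases outside the members that were tested, 3 were called higher, 1 lower and 16 neither, with a median log2 ratio of 0.00. The other 2 called higher were DUSP22, at 4.55 FPKM in the oe library and 1.24 FPKM in the nc library, and DUSP27, at 1.55 (oe) and 0.0926 (nc) FPKM. SPRY3 and SPRED3 were not analysed here.

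For the cascade itself, 16 genes were tested on a list of RAF, MEK and ERK kinases and scaffolds. This list also holds the regulators PEBP1 and PEA15 and the phosphatase genes PPP1CA and PPP2CA. Of the 16, 2 were called higher, 0 lower and 14 neither, with a median log2 ratio of 0.00. The genes called higher were MAP3K8, a kinase that activates MEK in inflammatory signalling, at 7.97 FPKM in the oe library and 1.57 FPKM in the nc library, and the scaffold IQGAP1, at 14.2 (oe) and 5.13 (nc) FPKM. The most abundant gene of that list was PEBP1, a kinase inhibitor protein, at 188 FPKM in the oe library and 372 FPKM in the nc library, just short of 2-fold (log2 ratio -0.98). Of 16 kinases of the JNK, p38 and atypical ERK branches tested, 0 were called higher or lower on the FPKM + 1 scale. With 0.1 FPKM added, 1 was called higher and 2 lower. By the mean of both libraries MAPK6, an atypical ERK, was the most abundant, at 38.7 FPKM in the oe library and 26.1 FPKM in the nc library.

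Upstream of RAS, 1 of 5 ligands tested was called higher. This was EGF, at 5.21 FPKM in the oe library and 1.51 FPKM in the nc library. Of 8 receptors tested, 2 were called lower and 0 higher. IGF1R had 2.29 FPKM in the oe library and 8.63 FPKM in the nc library, and FGFR3 at 1.47 (oe) and 5.81 (nc) FPKM, while EGFR, the most abundant receptor of the list by the mean of both libraries, stood at 12.0 (oe) and 8.93 (nc) FPKM. Of 19 adaptors and RAS regulators tested, 2 were called higher and 1 lower. Beside NF1 the RAS exchange factor SOS1 was called higher, at 3.06 FPKM in the oe library and 0.678 FPKM in the nc library, and SHOC2, a scaffold that helps activate RAF, was called lower, at 6.31 (oe) and 13.8 (nc) FPKM. PTPN11, the phosphatase SHP2, was the most abundant of these by the mean of both libraries, at 33.4 FPKM in the oe library and 24.4 FPKM in the nc library.

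Other inhibitors and targets of the pathway were compared by list. Of 21 further inhibitors of receptor and RAS signalling tested, 3 were called higher and 0 lower (median 0.29 on the log2 scale). ERRFI1, a feedback inhibitor of EGF receptors, had 57.9 FPKM in the oe library and 9.35 FPKM in the nc library, the tyrosine phosphatase PTPN12 at 9.61 (oe) and 2.88 (nc) FPKM, and the pseudokinase TRIB1 at 14.9 (oe) and 5.10 (nc) FPKM. Of 23 other ERK-induced genes tested, 10 were called higher and 0 lower (median 0.81 on the log2 scale), and 7 of the 23 were under 1 FPKM in the nc library. Among the 16 that reached 1 FPKM in both libraries, 4 were called higher and 0 lower, with a median of 0.29, against 4.54% higher and 5.2% lower among all genes that did so. These 4 were JUNB, at 219 FPKM in the oe library and 46.5 FPKM in the nc library, JUN at 58.3 (oe) and 21.9 (nc) FPKM, ATF3 at 31.5 (oe) and 3.0002 (nc) FPKM and KLF10 at 15.0 (oe) and 5.57 (nc) FPKM. JUNB, JUN and ATF3 encode AP-1 and related factors, which stress and cytokine signals induce as well as ERK. The list of ERK-induced genes was chosen with earlier results of these data known, so its counts are a description only.

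The other ERK-induced genes called higher were low in the nc library. ETV4 and ETV5, ETS factors induced by ERK, stood at 1.42 and 1.45 FPKM in the oe library and at 0.0493 and 0.0457 FPKM in the nc library. EGR1 had 3.76 FPKM in the oe library and 0.191 FPKM in the nc library, and FOS at 4.46 (oe) and 0.416 (nc) FPKM. KLF4, a zinc finger factor, stood at 7.39 (oe) and 0.792 (nc) FPKM, and MAFF, a small MAF factor, at 1.40 (oe) and 0.0988 (nc) FPKM. All 6 were under 1 FPKM in the nc library. CCND1, the cyclin D1 gene, had 75.4 FPKM in the oe library and 92.0 FPKM in the nc library, and PHLDA1, which did not reach 1 FPKM, at 0.558 (oe) and 0.874 (nc) FPKM. Of 17 ERK substrates and ETS factors tested, 3 were called higher (ETV6, ELF1 and ETS2) and 1 lower (STMN1, a microtubule regulator). ETV6 had 9.31 FPKM in the oe library and 2.31 FPKM in the nc library, ELF1 at 13.9 (oe) and 4.07 (nc) FPKM, ETS2 at 4.83 (oe) and 1.43 (nc) FPKM and STMN1 at 4.21 (oe) and 12.7 (nc) FPKM. MKNK2, the most abundant of that list, had 34.7 FPKM in the oe library and 26.7 FPKM in the nc library.

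**Figure D5:**
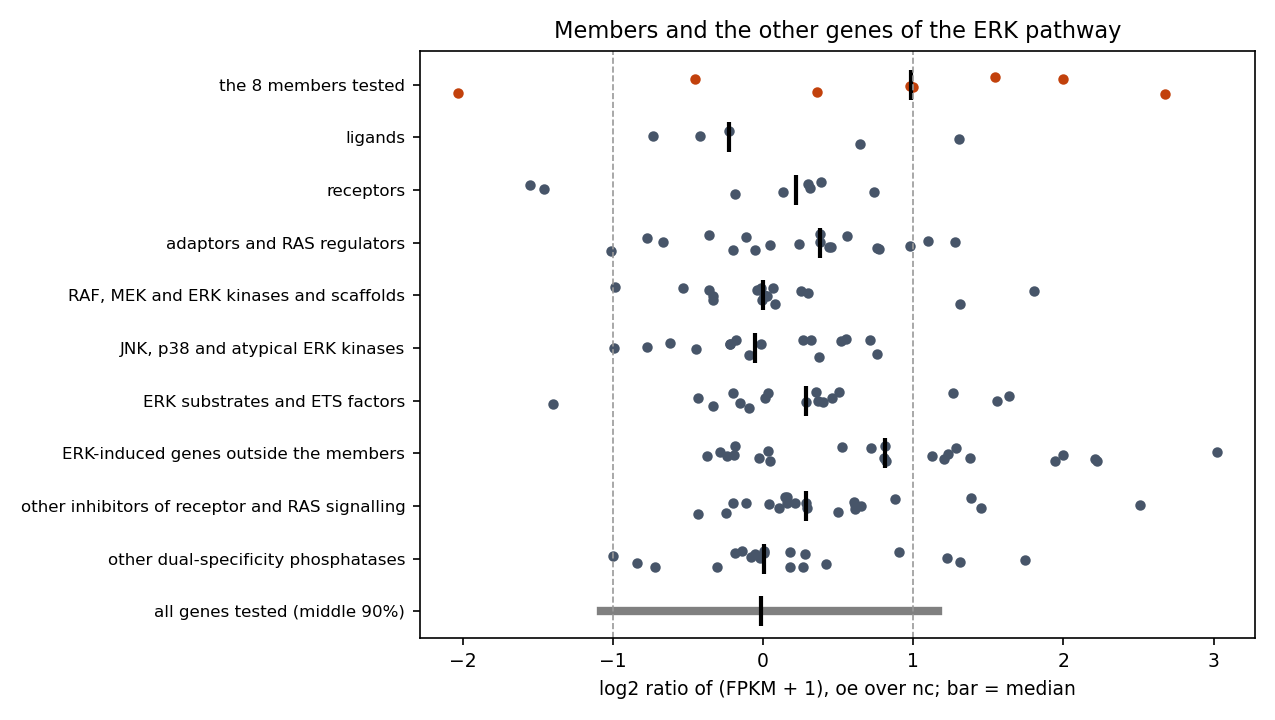
Log2 ratio of (FPKM + 1), oe over nc, of each gene tested in the 9 lists of the ERK pathway, with the members at the top and all genes tested at the bottom (grey bar, middle 90%), medians as black bars and 2-fold as dashed lines. The 8 members span -2.03 to 2.68. The 16 genes on the list of RAF, MEK and ERK kinases and scaffolds, which also holds some regulators, have a median of 0.00.

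Promoter sequence, which played no part in the choice of genes, was compared between members with higher and with lower levels in the oe library. RefSeq promoters of GRCh38.p14 (250 bases before to 50 after an annotated start) were taken for 7 of the 9 genes, with 11 starts in all. DUSP4, the only member called lower, was left out of the search, and DUSP5 was not among the 7 either. No gene called lower was therefore compared. Shown are DUSP1 and SPRY4, called higher, and a start each of SPRY1 and SPRY2, whose lower levels in the oe library fell short of 2-fold. Capitals mark matches, on either strand, to the CRE palindrome TGACGTCA and its core TGACG (bound by CREB and ATF factors), AP-1 (TGANTCA), STAT (TTCNNNGAA), ETS (CCGGAAG), the SRF CArG box and the NF-kappaB motif.
DUSP1, chr5:172771146-172771445, minus strand: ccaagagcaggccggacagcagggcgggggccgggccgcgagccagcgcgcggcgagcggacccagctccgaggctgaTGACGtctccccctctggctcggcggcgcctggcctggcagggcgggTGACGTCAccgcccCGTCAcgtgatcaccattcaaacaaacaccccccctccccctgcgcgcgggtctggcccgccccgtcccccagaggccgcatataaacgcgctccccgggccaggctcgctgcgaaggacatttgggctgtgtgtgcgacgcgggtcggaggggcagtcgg
SPRY4, chr5:142324198-142324497, minus strand: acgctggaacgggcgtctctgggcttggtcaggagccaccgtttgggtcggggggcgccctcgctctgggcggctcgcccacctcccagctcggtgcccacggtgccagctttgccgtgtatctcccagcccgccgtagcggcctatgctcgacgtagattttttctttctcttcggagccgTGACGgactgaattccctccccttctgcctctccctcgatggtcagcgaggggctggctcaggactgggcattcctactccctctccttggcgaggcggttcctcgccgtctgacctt
SPRY1, second start, chr4:123398136-123398435, plus strand: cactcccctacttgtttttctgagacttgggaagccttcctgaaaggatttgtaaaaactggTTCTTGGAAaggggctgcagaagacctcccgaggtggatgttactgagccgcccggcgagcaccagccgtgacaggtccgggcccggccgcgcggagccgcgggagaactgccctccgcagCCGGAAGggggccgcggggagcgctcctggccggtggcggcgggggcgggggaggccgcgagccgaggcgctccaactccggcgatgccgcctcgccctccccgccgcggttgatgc
SPRY2, first start, chr13:80341077-80341376, minus strand: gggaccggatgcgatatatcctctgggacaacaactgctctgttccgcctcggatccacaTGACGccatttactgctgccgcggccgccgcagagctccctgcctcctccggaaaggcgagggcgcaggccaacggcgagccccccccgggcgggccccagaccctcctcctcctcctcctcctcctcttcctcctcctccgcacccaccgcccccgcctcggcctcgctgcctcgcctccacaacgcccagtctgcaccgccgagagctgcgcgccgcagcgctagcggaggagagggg

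The DUSP1 window held 1 full CRE palindrome, whose first base lies at position -125 from the start, and further core matches at -172 and -111. A full palindrome was present in 1.85% of the 35116 promoters in the table and in no other of the 11 windows searched. The palindrome contains the core on each strand, so these matches overlap. SPRY4 held 1 core match at -68, SPRY2 held 1 at -190 and SPRED2 held 1 at 31 after its first start, a match found in 24.6% of all promoters. The second SPRY1 start held a STAT motif at -188 (7.66% of all promoters) and an ETS motif at -67 (10.3%). The second SPRED2 start held 2 matches to the loose AP-1 letters TGANTCA (7.71% of all promoters hold any). They read TGACTCA at -6 and TGAATCA at 35 after the start. None of the 11 windows matched the CArG box, found in 1.29% of promoters, or the NF-kappaB motif, found in 11.3%. The DUSP6 and SPRED1 windows, the first SPRY1 start and the other two SPRY2 starts held none of the motifs searched. A match is a run of letters only, and no binding was measured.

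Most of the transcripts share a compact build. In GENCODE 29, the longest coding transcript had 4 exons or fewer in 7 of the 9 genes, the exceptions being SPRED1 with 7 exons and SPRED2 with 6, against 19.9% of the 11007 tested genes with a transcript matched. The median was 4 exons over the 9 genes and 9 exons over the genes tested. The 3' untranslated region had a median length of 2025 bases in the 9 genes and 927 bases in the genes tested. The AUUUA pentamer, a core element of unstable mRNAs, occurred there 24 times in SPRED1, 8 in SPRY4, 6 in DUSP4 and 5 in SPRED2. The count was 4 in DUSP1 and in SPRY1, 2 in SPRY2, 1 in DUSP6 and 0 in DUSP5. Per kilobase of that region the median was 2.11 in the 9 genes and 1.66 in the genes tested, a smaller gap than in the counts. SPRY4 and DUSP4, of opposite direction, were alike here, with 3785 and 3965 bases and 2.11 and 1.51 pentamers per kilobase. None of the 9 genes overlapped another listed gene, but GENCODE 29 annotates antisense genes across DUSP1 (AC022217.3), DUSP6 (AC024909.2) and SPRY4 (SPRY4-AS1). On the same strand, SPRED2 overlaps AC012370.1, annotated as sense intronic. These overlaps are of whole gene spans, and shared exons were not looked for. How strands were counted is not stated either, so whether reads of these genes mixed with those of their partners cannot be told.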

How the data were processed

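RNA of 2 LNCaP libraries was sequenced, from 2 ug of total RNA each, per the labels' protocols. The authors deposited gene levels as FPKM, per the file headers, and the submitters' processing notes name StringTie 2.1.0. An aligner was not given in the sources used here. Those notes give a mouse build, mm10, while identifiers are human and 11946 of 12075 carry the suffix of GENCODE mapped to GRCh37. GRCh37 is inferred from that suffix. None of the members' starts or ends equals that in RefSeq's GRCh38 table, but gene ends can differ between annotations of 1 build, so this does not settle the build. The deposited tables of changed genes give log2 fold changes, which equal differences of log2(FPKM + 1) in all 3511 rows, linear fold ratios of FPKM + 1, and p-values of 1 throughout. The lowest level of a listed gene in its higher library was 0.500 FPKM. Depth is unknown: 225 genes under 0.6 FPKM gave 216 distinct ratios (3 decimals), with no common step.

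Log2 ratios with a pseudocount of 1 FPKM, sums, ranks and motif matches were computed in Python 3.11.15 with pandas 2.3.3, numpy 2.4.6 and matplotlib 3.10.9. The ratio and the 2-fold rule were run on folds simulated without noise, which checks the arithmetic only. No test across samples was possible with 1 library per group. The members and lists were chosen with earlier results of these data known. Named genes were all members and, in each list, genes past 2-fold and the most abundant gene. DUSP7, DUSP8, DUSP16, CCND1, PHLDA1 and the markers are outside it and were picked with their values in view. Alternatives were pseudocounts of 0.1 and 0.5, other filters on low values, 2 scalings and a 1.5-fold rule.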

Additional observations from a re-analysis of the deposited data

How the results depend on the processing

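The number of members called higher, 3 as reported, was 5 with a pseudocount of 0.1, 5 with a pseudocount of 0.5, 5 with the libraries scaled to the same FPKM sum and 5 under a 1.5-fold rule. In each case SPRED1 and DUSP6 were added, and at the same 75th percentile of FPKM SPRED1 alone was, which gave 4. The number was 2 when at least 5 FPKM was required in the higher library, which left out DUSP5. It stayed at 3 under the other filters on low values. The median log2 ratio of the members tested, 0.99 as reported, was 1.59 with a pseudocount of 0.1, 1.36 with a pseudocount of 0.5, and 1.54 over the 3 members of at least 5 FPKM in either library. The number called lower was 1, DUSP4, under every alternative tried. No member changed sign under any alternative that gave it a value. Of 144 counts of the pathway lists under the alternatives, 24 moved, either by over 1.5 times or to or from 0. Over all genes tested, 719 were called higher and 649 lower, against 1124 and 914 with a pseudocount of 0.1 and 1700 and 1691 under a 1.5-fold rule. These counts were 907 and 773 with a pseudocount of 0.5 and 853 and 527 at the same FPKM sum. At the same 75th percentile they were 758 and 603. With the 5 FPKM filter they were 508 and 517 of 7147 genes. Scaling to the same FPKM sum moved the median log2 ratio of all genes to 0.09 from -0.01, and that of the members to 1.04. No paired analysis was possible because each group holds 1 library. Levels near 0 in the nc library limit DUSP5, DUSP6 and SPRY4, whose folds in plain FPKM have no interval.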
